A study of Rattus norvegicus with 48 samples.

Results

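Muscle of old rats of the HCR and LCR lines was compared after both had run to exhaustion, on 6 arrays of old HCR exhausted rats against 6 arrays of old LCR exhausted rats. These 12 arrays were chosen by their labels from a series of 48, which holds 6 arrays for each combination of line, age (young or old) and state (exhausted or at rest). The abbreviations HCR and LCR, which the labels do not spell out, commonly stand for high capacity and low capacity runners, rats selected over generations for treadmill endurance. All 12 rats of this comparison were old and exhausted, and the labels name no engineered allele and no agent. The labels give no age in months, sex, running time or distance, and no interval between the run and tissue collection. How far the lines ran is therefore unknown here, and the line and the length of the run cannot be told apart in this comparison. Each of the 12 arrays carries its own animal number, so that replicates are different rats. Elsewhere in the series, young HCR rest replicate 6 carries more than 1 animal number. RNA of the extensor digitorum longus (EDL), a hindlimb muscle made mostly of fast fibres, was hybridised to Affymetrix Rat Gene ST 2.1 arrays. Levels are given on the log2 scale of the deposited values, on which a difference of 1 is a doubling, and each difference is HCR minus LCR.

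Contracting muscle switches on several transcriptional programmes at once. Calcium and cAMP signals act on transcription factors such as CREB, which drive immediate early genes. Circulating glucocorticoids and the FoxO factors raise genes that restrain growth and alter fuel use, and heat, metal ions, stretch and inflammatory signals each have target genes of their own. In resting muscle of rodents bred for running capacity, genes of mitochondrial fuel use are known to differ between lines, so that a difference after a run can be either a standing line difference or a difference in the response. Rats of the same lines and age at rest, and young rats after exhaustion, were measured on other arrays of the series and are used below for that reason.

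Promoter sequences are shown for 3 genes that were among the 15 largest differences higher in HCR, because they stand for kinds of input to such a response: Mt2A, a metallothionein that binds zinc and copper and answers to metals and glucocorticoids, and Sik1 and Junb, immediate early genes. Each sequence is the 250 bases before the gene's start in RefSeq (build GRCr8), written 5′ to 3′ on the gene's strand. For Mt2A (chr19:10838709-10838958, minus strand) capitals mark matches on either strand to the metal response element cores TGCGCNC and TGCACNC. For Sik1 (chr20:9958647-9958896, minus strand) and Junb (chr19:40080876-40081125, plus strand) capitals mark matches on either strand to TGACG, the core of a cAMP response element. The capitals in one sequence do not overlap each other.

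Mt2A: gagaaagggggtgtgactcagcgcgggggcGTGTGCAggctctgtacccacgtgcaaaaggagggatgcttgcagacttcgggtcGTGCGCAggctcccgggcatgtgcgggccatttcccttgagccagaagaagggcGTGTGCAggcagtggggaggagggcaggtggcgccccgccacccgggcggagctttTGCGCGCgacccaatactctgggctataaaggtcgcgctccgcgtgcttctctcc

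Sik1: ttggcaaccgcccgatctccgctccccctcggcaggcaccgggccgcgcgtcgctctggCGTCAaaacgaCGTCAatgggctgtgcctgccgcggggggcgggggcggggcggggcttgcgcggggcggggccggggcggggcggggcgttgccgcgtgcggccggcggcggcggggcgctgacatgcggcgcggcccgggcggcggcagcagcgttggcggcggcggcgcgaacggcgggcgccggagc

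Junb: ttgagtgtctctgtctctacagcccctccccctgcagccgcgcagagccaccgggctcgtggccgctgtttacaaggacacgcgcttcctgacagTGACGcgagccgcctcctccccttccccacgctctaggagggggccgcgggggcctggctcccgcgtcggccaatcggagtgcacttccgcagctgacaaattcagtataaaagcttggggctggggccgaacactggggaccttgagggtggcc

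The Mt2A promoter held 4 metal response element cores, 2 of each form. At least 4 were found in 76 of 27457 RefSeq promoters of this length (0.277%), and in 29 of 7808 promoters of the genes tested here (0.371%). The cAMP element core occurred 2 times before Sik1 and 1 time before Junb, but it is a common word: 26.6% of the promoters of tested genes held it, against 27.3% for genes higher in HCR and 26.2% for genes lower in HCR. These matches describe the letters in the window only. RefSeq promoters were found for 13 of the 15 genes named as higher and 12 of the 15 named as lower.

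Markers of fast muscle were bright, as the labelled tissue calls for. The 7 fast fibre genes tested averaged 12.8 to 12.9 on the HCR arrays and on the LCR arrays, and slow fibre genes averaged 8.56 to 9.34 in HCR arrays and 7.94 to 8.89 in LCR arrays. Pairs of arrays correlated at 0.966 to 0.984 within old HCR exhausted rats and at 0.977 to 0.984 within old LCR exhausted rats. Old HCR exhausted replicate 1 stood apart, with a quality weight of 0.360 and the highest lower quartile of the HCR arrays. Counts below were also made without it and the 2 other arrays of the series with weights below 0.5.

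Of 9558 genes tested in a single limma model of all 48 arrays, 385 (4.03%) differed between old HCR and old LCR muscle after exhaustion at a Benjamini-Hochberg adjusted p below 0.05. HCR was higher for 305 of them (3.19%) and lower for 80 (0.837%). At least a 1.5-fold difference was seen for 139 of the higher and 29 of the lower genes. The median difference over all genes tested was 0.04. An unadjusted p below 0.05 was reached by 1540 of the 9558, the number to set beside the unadjusted counts for lists below. Quantile normalization of the arrays moved this split to 260 higher and 117 lower, median centring to 352 and 65. The arrays of the groups did not overlap for 219 genes (2.29%): all 6 HCR arrays lay above all 6 LCR arrays for 175 (1.83%) and below them for 44 (0.46%). Without the 3 arrays that stood apart 421 genes passed, 347 higher and 74 lower.

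**Figure D1:**
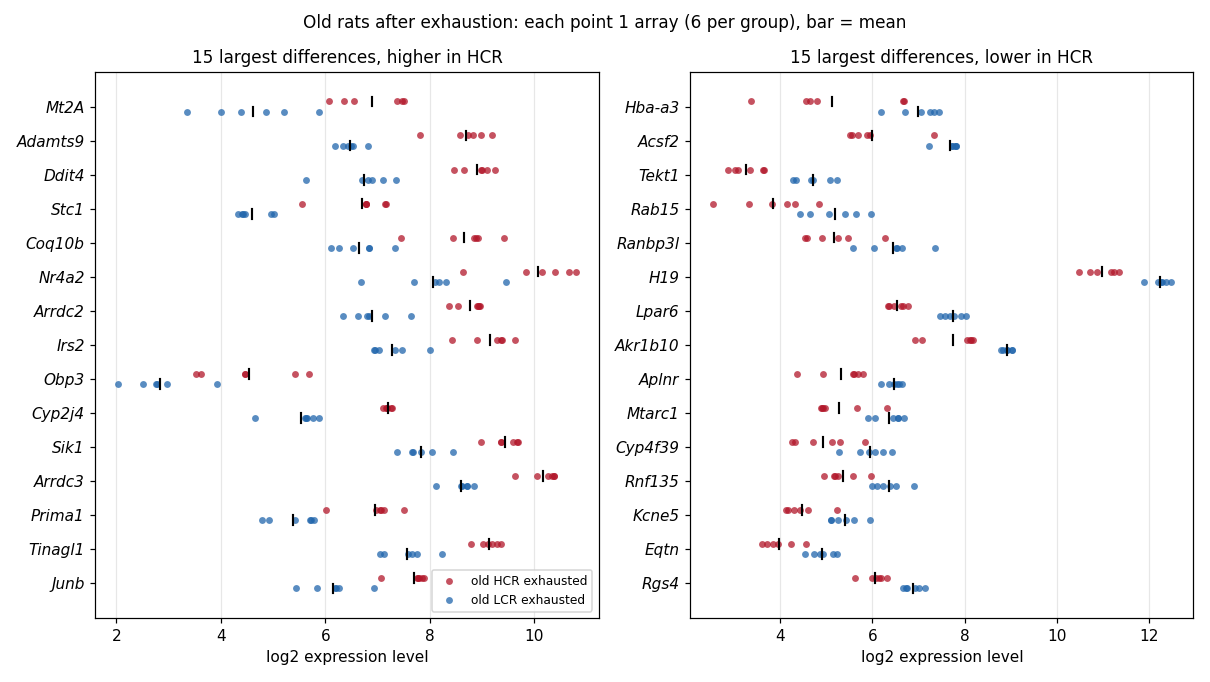
Levels on the log2 scale (x axis) of the 15 largest differences in each direction, 1 gene per row, with each point 1 array, red for old HCR exhausted and blue for old LCR exhausted rats (6 each) and a bar at each group's mean. Red and blue points do not overlap for 13 of the 15 genes on the left and for 7 of the 15 on the right. The genes were chosen by their difference on these same arrays, which favours separation. Over all genes tested the shares were 1.83% and 0.46%.

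Among the 15 genes with the largest excess in HCR were Mt2A, Ddit4 and Irs2 of the glucocorticoid and FoxO target list and Nr4a2, Sik1 and Junb of the immediate early list. Mt2A was 6.06 at the lowest, 6.96 at the median and 7.51 at the highest in old HCR exhausted arrays, against 3.35, 4.62 and 5.88 in old LCR exhausted arrays. The groups did not overlap, and the difference was 2.27 ± 0.39 (SE of the model here and below; 4.82-fold, adjusted p = 9.16e-05). The lower LCR values of Mt2A lay below 4.54, the median of all values on the arrays, and so toward the dim end. Probes of near-identical metallothionein copies may not be told apart on the array. Ddit4, which inhibits the growth-promoting kinase complex mTORC1, was 8.46, 8.98 and 9.25 (lowest, median, highest) in HCR, against 5.62, 6.86 and 7.34 in LCR. Every HCR array lay above every LCR array, by 2.16 ± 0.28 on average (4.46-fold, adjusted p = 1.25e-06). Irs2, an adaptor of the insulin receptor, was 8.42, 9.32 and 9.63 in HCR, against 6.92, 7.18 and 8.0 in LCR. It too separated the groups, with a difference of 1.88 ± 0.19 (3.67-fold, adjusted p = 5.14e-09). Since whole muscle was measured, more cells of a type and more RNA per cell cannot be told apart for these or later genes.

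Immediate early genes respond to signals without new protein synthesis. Nr4a2, an orphan nuclear receptor, was 8.63, 10.27 and 10.79 in HCR, against 6.68, 8.13 and 9.45 in LCR. Its groups overlapped, because the lowest HCR array fell below the highest LCR array, while 5 of 6 HCR arrays lay above all LCR arrays (difference 2.01 ± 0.34, adjusted p = 0.000101). Sik1, a salt-inducible kinase that acts on CREB coactivators, was 8.98, 9.48 and 9.69 in HCR, against 7.36, 7.76 and 8.43 in LCR. Junb, a subunit of the AP-1 factor, was 7.07, 7.78 and 7.89 in HCR, against 5.45, 6.19 and 6.93 in LCR. Neither gene's groups overlapped, and the differences were 1.61 ± 0.27 and 1.54 ± 0.26 (3.05-fold and 2.91-fold).

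Adamts9, Stc1, Tinagl1 and Prima1 were further genes of the top 15. Adamts9, a secreted protease that cleaves proteoglycans of the matrix, was 7.80, 8.78 and 9.20 in HCR, against 6.19, 6.45 and 6.82 in LCR. The lowest HCR array lay well above the highest LCR array, and the difference of 2.22 ± 0.19 had the smallest adjusted p of the genes named here (2.24e-11). Stc1, the secreted hormone stanniocalcin 1, was 5.54, 6.78 and 7.16 in HCR, against 4.33, 4.44 and 5.02 in LCR (difference 2.10 ± 0.28). Its LCR median lay below 4.54, the median of all values on the arrays, and so toward the dim end. Tinagl1, a secreted matrix protein, differed by 1.56 ± 0.18 and Prima1, the membrane anchor of acetylcholinesterase, by 1.57 ± 0.27. All 4 separated the groups. HCR replicate 5 had the lowest HCR level for Stc1 and Prima1, at 5.54 and 6.01, yet stayed above every LCR array.

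The remaining members of the top 15 included trafficking adaptors and metabolic proteins. The arrestin-like adaptors Arrdc2 and Arrdc3, which bring ubiquitin ligases to membrane proteins, were higher by 1.88 ± 0.29 and 1.57 ± 0.17. Coq10b, a mitochondrial protein that binds coenzyme Q, was 7.44, 8.86 and 9.43 in HCR, against 6.11, 6.68 and 7.33 in LCR (difference 2.01 ± 0.22, adjusted p = 3.06e-08). Cyp2j4, a cytochrome P450 that acts on fatty acids, was nearly constant in HCR at 7.10 to 7.27, against 4.65 to 5.87 in LCR. Obp3, a lipocalin, overlapped between the groups at 3.53 to 5.69 in HCR and 2.04 to 3.93 in LCR (difference 1.70 ± 0.42, adjusted p = 0.0105). Its values lie near the dim end of the array. Over the 15 genes, HCR replicate 5 was the lowest HCR array for 12, with a mean level of 7.49 against 8.17 to 8.42 in the other HCR arrays, and the LCR arrays averaged 6.07 to 6.50.

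Among the genes lower in HCR were receptors and regulators of G protein signalling. Aplnr, the receptor of the peptide apelin and mainly vascular, was 4.36, 5.59 and 5.80 in HCR, against 6.19, 6.49 and 6.64 in LCR. Lpar6, a receptor of lysophosphatidic acid, was 6.34, 6.54 and 6.76 in HCR, against 7.47, 7.73 and 8.03 in LCR. Rgs4, which shortens G protein signals, was 5.63 to 6.31 in HCR and 6.67 to 7.14 in LCR. None of the 3 overlapped between groups, and the differences were -1.13 ± 0.19 for Aplnr, -1.21 ± 0.17 for Lpar6 and -0.81 ± 0.17 for Rgs4 (adjusted p = 6.27e-05, 4.18e-06 and 0.00138).

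H19, an imprinted non-coding RNA that is abundant in muscle, was 10.48, 11.02 and 11.34 in HCR, against 11.90, 12.26 and 12.47 in LCR. The groups were apart by a difference of -1.28 ± 0.16 (adjusted p = 3.64e-07). The enzymes Acsf2, Akr1b10 and Mtarc1 were lower as well. Acsf2, a mitochondrial acyl-CoA synthetase, was 5.52, 5.79 and 7.34 in HCR, against 7.22, 7.76 and 7.82 in LCR. HCR replicate 2 alone reached the LCR range, and LCR replicate 2 was the lowest of its group (difference -1.69 ± 0.33, adjusted p = 0.000948). Akr1b10, an aldo-keto reductase, was below every LCR array in all 6 HCR arrays, at 6.92 to 8.18 in HCR and 8.78 to 9.03 in LCR (difference -1.17 ± 0.28). Mtarc1, a molybdenum enzyme of the outer mitochondrial membrane, overlapped through 1 HCR array (difference -1.08 ± 0.23, adjusted p = 0.0025).

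The other genes of the lower group included several that were dim or whose calls were unstable. Hba-a3, an alpha globin, was 3.37 to 6.69 in HCR and 6.18 to 7.45 in LCR, the widest HCR spread of the lower group. Its difference of -1.88 ± 0.48 (adjusted p = 0.0131) missed the threshold without HCR replicate 1 (-1.53, adjusted p = 0.0575), and near-identical globin copies may share its probes. The globin genes Hbb-b1 and Hba-a1 differed by -0.49 and -0.43, with adjusted p of 0.342 and 0.340. Tekt1, a microtubule protein of cilia, was below every LCR array at 2.86 to 3.66 in HCR and 4.28 to 5.23 in LCR, values close to or below the median of the arrays. Rab15, a small GTPase of endosomes, differed by -1.35 ± 0.41 and lost its call when any of 8 of the 12 arrays was left out (adjusted p up to 0.146). Cyp4f39, a fatty acid hydroxylase of the P450 family, differed by -1.01 ± 0.27 and lost its call without HCR replicates 2 or 4 or LCR replicates 4 or 5, with adjusted p of 0.0825, 0.0753, 0.0585 and 0.0648. Rnf135, a ubiquitin ligase of antiviral signalling, separated the groups at 4.95 to 5.97 in HCR and 6.0 to 6.90 in LCR. Ranbp3l, Kcne5 and Eqtn, at -1.28, -0.93 and -0.92, overlapped through 1 HCR array each.

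By function, the immediate early genes and the glucocorticoid and FoxO targets held the most calls. Of 24 immediate early genes tested, 9 were higher in HCR, 0 were lower and 15 did not pass, with a median difference of 0.44 against 0.04 over all genes. Of all genes 3.19% were higher and 0.837% lower. Besides Nr4a2, Sik1 and Junb, Klf4, a transcription factor, averaged 8.71 ± 0.24 in HCR and 7.42 ± 0.30 in LCR (SD, n = 6 each), a difference of 1.30. Csrnp1, Maff, Klf2, Zfp36 and Nr4a1, named here after their values were seen, were higher by between 0.70 and 1.23. The classical members were not among them: Fos differed by -0.19, Fosb by -0.02 and Egr1 by -0.79, with adjusted p of 0.88, 0.98 and 0.30. The count was 9 or 10 in every alternative tried. Old rats at rest, in which 10.3% of all genes were higher and 1.98% lower (median 0.08), had a like count and median for this list. There 9 were higher and 1 lower, with a median of 0.44, but 2 genes, Nr4a1 and Klf2, were higher in both states. Fos and Egr1 were among the others called at rest, by 1.81 and 1.28. The count at rest was 5 without old HCR rest replicate 1 or old LCR rest replicate 6, 6 after quantile normalization and 2 in a fit of those 12 arrays alone. Of the 24 tests of whether the gap after exhaustion differed from that at rest, 3 passed above 0 (Junb, Maff and Rrad) and 1 below (Egr1), genes likewise named after their values were seen. Over all genes 0.816% passed above 0 and 0.774% below.

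Of 14 glucocorticoid and FoxO targets, 8 were higher in HCR and 0 lower, all 14 had a positive difference (59.1% of all genes did), and the median was 0.58. At rest 5 were higher and 3 lower, beside 10.3% and 1.98% of all genes, with 3 genes higher in both states. The count higher at rest was 3 after quantile normalization and 2 in a fit of those 12 arrays alone. Errfi1, a feedback inhibitor of the EGF receptor, averaged 10.99 ± 0.16 in HCR and 9.66 ± 0.23 in LCR without overlap (difference 1.33 ± 0.19). Fkbp5, a cochaperone of the glucocorticoid receptor, was higher by 0.94, the clock gene Per1 by 0.99, the transcription factor Klf15 by 0.60 and Trim63, the muscle ubiquitin ligase MuRF1, by 0.55. Per1 lost its call without LCR replicate 1 (0.79, adjusted p = 0.0868). Fbxo32, the ubiquitin ligase atrogin-1, differed by 0.14 and Foxo1 by 0.15, with adjusted p of 0.67 and 0.58. The list held 7 to 9 higher members in all alternatives.

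**Figure D2:**
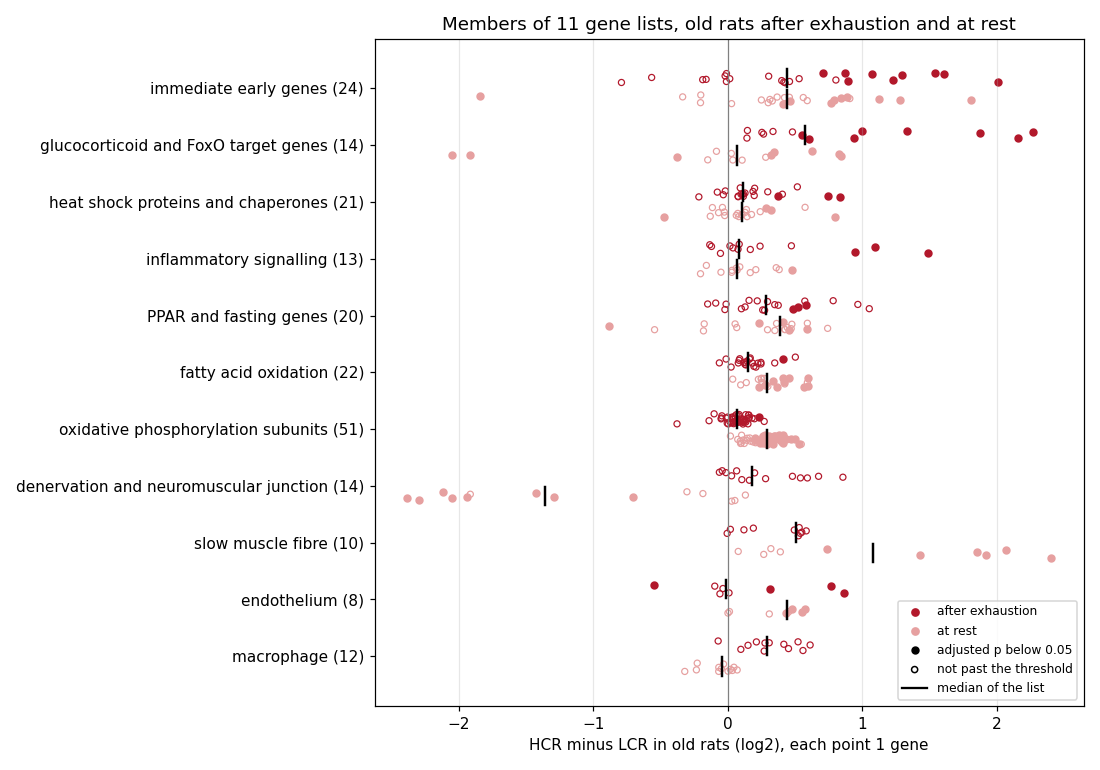
HCR minus LCR difference on the log2 scale (x axis) for the members of 11 gene lists (rows, with the number tested), each point 1 gene, dark red for old exhausted and pale red for old rested rats. Filled points passed an adjusted p below 0.05 and bars mark list medians, such as 0.58 after exhaustion and 0.07 at rest for the glucocorticoid and FoxO targets.

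Inflammatory signalling and chaperone genes each held 3 calls, all higher, where 3.19% of all genes were higher. Of 13 inflammatory signalling genes 3 were higher. Ptgs2, the inducible cyclooxygenase, averaged 6.42 ± 0.66 in HCR and 4.93 ± 0.15 in LCR (difference 1.49), Nfkbia, the inhibitor of NF-kappaB, differed by 1.10 and Il6r, the interleukin 6 receptor, by 0.95, each without overlap. Of 21 heat shock proteins and chaperones 3 were higher: Dnaja1 by 0.83, Hsph1 by 0.74 and Bag3 by 0.37. Hspa1b, a classical inducible member, differed by 0.13 (adjusted p = 0.85). Dnaja1 spread widely in HCR, at 9.33 to 10.92, and missed the threshold in a fit of the 12 arrays alone (adjusted p = 0.142).

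Hes1, a transcriptional repressor and target of Notch, averaged 8.29 ± 0.39 in HCR and 6.75 ± 0.15 in LCR, a difference of 1.54 ± 0.16 with no overlap. It was the single called gene of 15 in the Notch list. Beside this list and those that follow, 3.19% of all genes were higher. In the list of transforming growth factor beta and BMP signalling 3 of 26 were higher, with Tgif1, a homeodomain repressor, at 0.92, Id1 at 0.66 and Bmp2 at 0.66. Id1 lost its call without HCR replicate 4 (adjusted p = 0.0505) or LCR replicate 1 (adjusted p = 0.0603), and Bmp2 when any of 9 of the 12 arrays was left out. In the unfolded protein response 3 of 17 were higher, among them Ppp1r15a, which restores translation after stress, by 0.77 ± 0.14. Herpud1 was higher by 0.38 but not without LCR replicate 5 (adjusted p = 0.0539), and Chac1, by 0.93, lost its call without any of 5 arrays.

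Lists of growth, matrix and vessel genes held 2 to 5 calls each, beside 4.03% of all genes. In insulin and growth signalling 4 of 25 were higher: Ddit4 and Irs2, and at 0.31 each Akt1 and Eif4ebp1, which lost their calls when any of 8 or any of 5 arrays was left out. The count was 2 without HCR replicates 1, 2 or 4 or LCR replicate 3. In the extracellular matrix list 30 of 31 differences were positive, against 59.1% of all genes, and 2 passed, Timp3, an inhibitor of matrix proteases, by 0.90 ± 0.12 and the basement membrane collagen Col4a1 by 0.45 ± 0.10. Without HCR replicate 5, 4 passed. At rest 26 of the 31 were positive, against 67.3% of all genes. There 5 were called higher, beside 10.3% of all genes, both Timp3 and Col4a1 among them (3 after quantile normalization, 2 in a fit of those 12 arrays alone). Of 20 hypoxia and angiogenesis genes 3 were higher, Adamts9, Ddit4 and Adamts1 (0.62), and 2 lower, Aplnr and the angiopoietin receptor Tek (-0.55 ± 0.10). Without HCR replicate 1, 5 were higher.

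Genes of oxidative phosphorylation, fatty acid oxidation and the citric acid cycle gave 0 or 1 call a list after exhaustion. Of all genes 3.19% were higher, and 1540 of 9558 had an unadjusted p below 0.05 in limma. Of 51 oxidative phosphorylation subunits 1 was higher, Ndufs7 by 0.24, and the median was 0.07. Of 22 fatty acid oxidation genes 1 was higher, Acaa2 by 0.41, and of 17 citric acid cycle genes 0 passed in limma (0 at an unadjusted p below 0.05), with 0.04 as the median. Both single calls were fragile, with Ndufs7 lost when any of 9 arrays was left out and Acaa2 when any of 8 was. In the branched-chain amino acid list 2 of 18 were higher. Acadsb, which oxidises short branched acyl-CoA, averaged 10.18 ± 0.34 in HCR and 9.33 ± 0.23 in LCR without overlap (difference 0.85). Bckdhb, at 0.33 and an adjusted p of 0.0499, lost its call without any of 11 arrays.

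Fat release and use gave 3 calls among 20 PPAR and fasting genes, all higher, where 3.19% of all genes were higher. Pnpla2, the lipase that starts triglyceride breakdown, was higher by 0.48 ± 0.09 without overlap, the mitochondrial thioesterase Acot2 by 0.58 ± 0.14 and lipoprotein lipase, Lpl, by 0.52 ± 0.14. Lpl lost its call without HCR replicate 4 (adjusted p = 0.0774) or LCR replicates 1 (0.0581) or 4 (0.0668). Pdk4, which shuts pyruvate out of mitochondria, and Angptl4 differed by 0.97 and 1.05 but did not pass, with adjusted p of 0.15 and 0.079. In glycolysis and glycogen metabolism 0 of 19 genes passed, and 3 had an unadjusted p below 0.05.

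The line difference was next read in old rats at rest, which share no array with the exhausted rats. There 1173 genes (12.3%) passed, 984 higher in HCR (10.3%) and 189 lower (1.98%). Of the 305 genes higher after exhaustion 267 had the same sign at rest (87.5%, against 67.3% of all genes), but 110 were called in the same direction, which is 36.1% of the 305 and 11.2% of the 984. Of the 80 lower genes 45 had the same sign at rest (56.3%, against 32.7% of all genes) and 16 were called. Across genes the rest and exhausted differences correlated at 0.216 over all 9558 and 0.464 over the 385, values that describe genes and not independent replicates. The 385 were chosen by their exhausted difference, a choice that by itself raises the correlation over them.

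The line difference in young exhausted rats, again on other arrays, came with larger shares in common. In them 485 genes (5.07%) differed between lines, 363 higher (3.8%) and 122 lower (1.28%). Of the 305 genes 296 had the same sign (97.0%, against 57.1% of all genes) and 155 were called, 50.8% of the 305 and 42.7% of the 363. Of the 80 lower genes 75 had the same sign (93.8%, against 42.9%) and 33 were called, 41.3% of the 80 and 27.0% of the 122. The correlation across genes was 0.557 over all genes and 0.894 over the 385, a value raised by the same choice of genes. Of the 15 named higher genes 14 were called in young exhausted rats in the same direction. At rest 4 of the 15 were called in either direction, among them Mt2A, which was lower in HCR there. Of the 15 named lower genes 10 were called in young exhausted rats in the same direction and 8 at rest. A direct test of whether the line difference after exhaustion differed between old and young rats called 0 genes in limma, with 472 at an unadjusted p below 0.05.

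**Figure D3:**
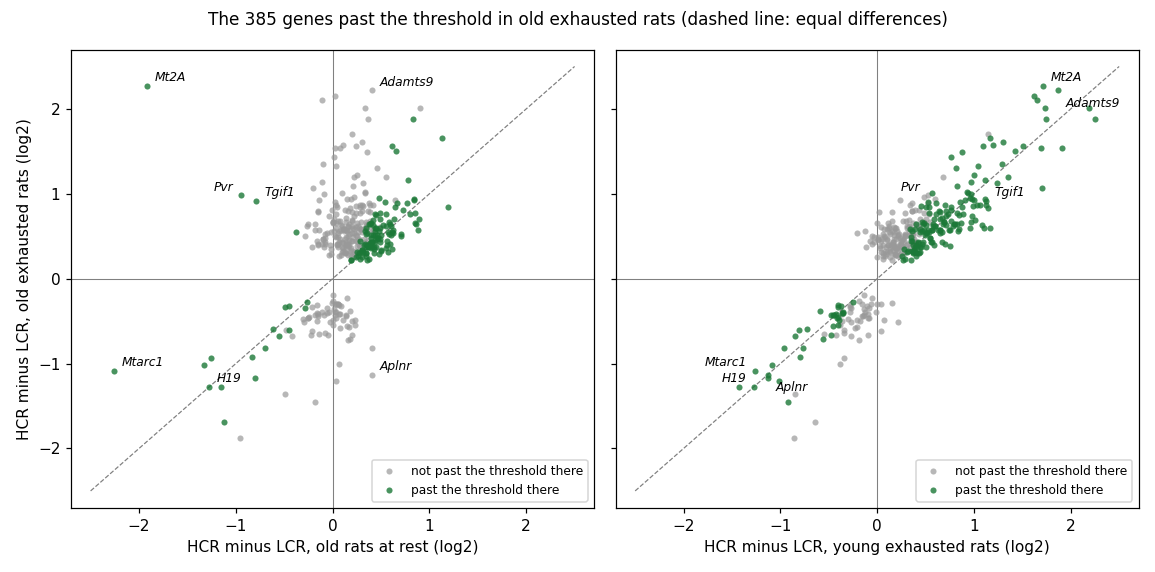
HCR minus LCR difference in old exhausted rats (y axis, log2) of the 385 genes past the threshold against the same difference in old rats at rest (left) and in young exhausted rats (right), each point 1 gene, green where also called there. Mt2A lies at 2.27 on the y axis and at -1.91 at rest but at 1.71 in young exhausted rats, while H19 lies at -1.28, -1.28 and -1.27.

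Several genes carried about the same line difference in the other rats. H19 differed by -1.28 at rest and -1.27 in young exhausted rats, and Ranbp3l by -1.15 at rest and -1.42 in young exhausted rats. Acadsb was higher by 1.19 at rest and 0.88 in young exhausted rats, and Pnpla2 by 0.46 and 0.54. Cyp2j4 was higher by 1.66 ± 0.19 in old exhausted rats, 1.13 at rest and 1.16 in young exhausted rats, and its interaction with exercise of 0.53 did not pass (adjusted p = 0.36). Mtarc1 was lower still at rest, by a difference of -2.26, with medians of 4.48 in old HCR and 6.77 in old LCR rats at rest.

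Many of the largest differences did not pass at rest. Whether the line difference in old rats differed between exhaustion and rest was tested as a line by exercise interaction. The test shares the 12 exhausted arrays with the main comparison and called 152 genes (1.59%), 78 above 0 (0.816%) and 74 below (0.774%). Of the 305 genes higher after exhaustion 35 passed it above 0, and of the 80 lower genes 16 passed it below 0. For the rest of the 385 a gap different from that at rest was not shown. Adamts9, with medians of 7.14 in old HCR and 6.58 in old LCR rats at rest, had an interaction of 1.82 ± 0.26 (adjusted p = 5.1e-05). Hes1, at 6.43 and 6.44 there, had one of 1.46 ± 0.22 (adjusted p = 8.71e-05) and Ddit4, at 6.82 and 6.56, one of 2.13 ± 0.40 (adjusted p = 0.00208). In the opposite direction, Aplnr was 6.98 in old HCR and 6.53 in old LCR rats at rest and had an interaction of -1.53 ± 0.26 (adjusted p = 0.000632). Lpar6, at 7.89 and 7.97, had one of -1.25 ± 0.24, and Rgs4, at 7.26 and 6.82, one of -1.22 ± 0.23 (both adjusted p = 0.00283). Rnf125, a ubiquitin ligase, and the ephrin Efna1 were lower after exhaustion by differences of -0.67 and -0.71, with interactions of -0.87 and -0.89. Podxl2, a sialomucin, had an interaction of -0.69 (adjusted p = 0.00208), with a line difference of -0.20 after exhaustion, not past the threshold (adjusted p = 0.262), and of 0.49 at rest.

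**Figure D4:**
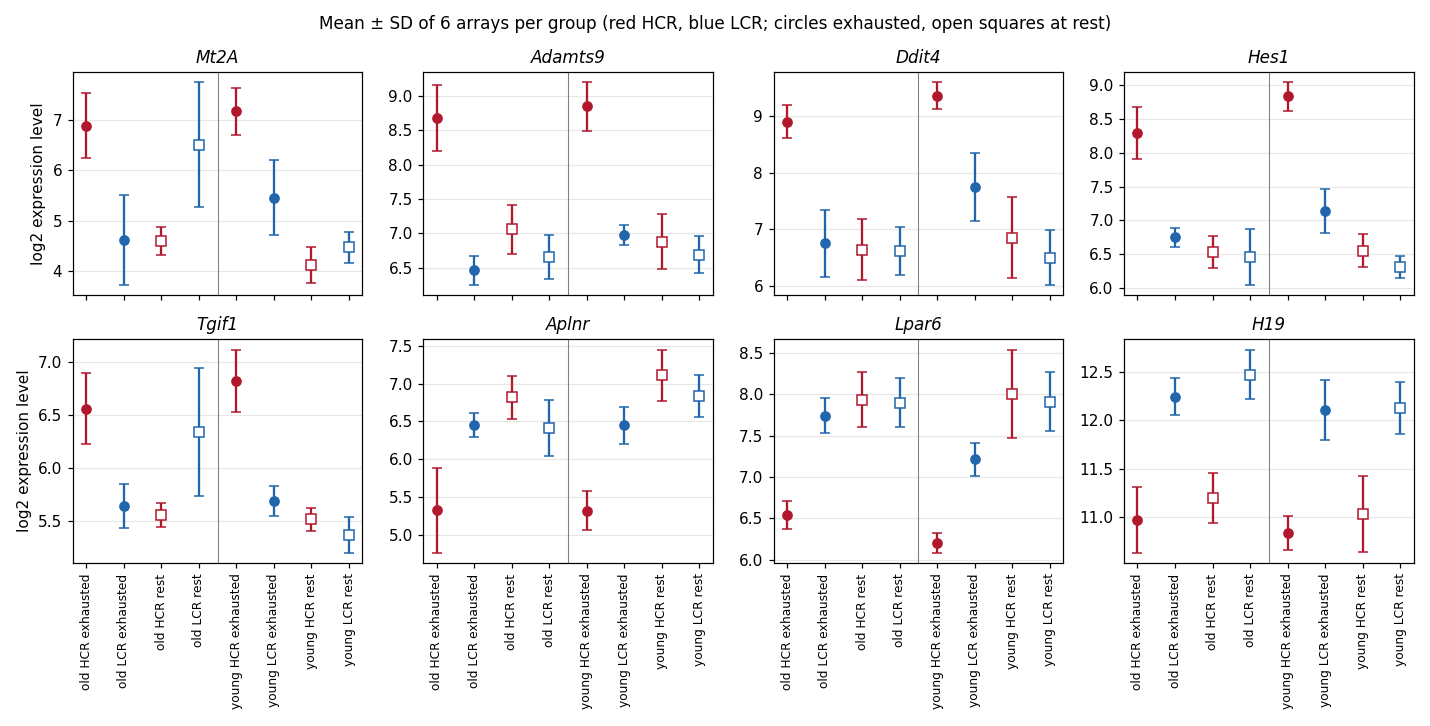
Mean level on the log2 scale (y axis) with SD of 6 arrays in each of the 8 groups (x axis) for 8 genes, red for HCR and blue for LCR, filled circles for exhausted and open squares for rested rats. Mt2A and Tgif1 are high in old LCR rats at rest as well as in HCR rats after exhaustion, whereas H19 is lower in HCR in every pair of groups.

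For 4 of the 305 genes, Mt2A, Pvr, Tgif1 and Trim63, the line difference at rest was called in the opposite direction. Mt2A was 4.16, 4.57 and 4.96 (lowest, median, highest) in old HCR rats at rest, against 4.41, 6.64 and 7.79 in old LCR rats at rest. The LCR rats at rest were therefore both high and widely spread, and the interaction was 4.18 ± 0.54 (adjusted p = 1.14e-05). Tgif1 was 5.57 in old HCR and 6.47 in old LCR rats at rest by median, and Pvr, an adhesion receptor of the nectin family, was 7.25 and 8.41. Their interactions were 1.70 ± 0.23 and 1.93 ± 0.29 (adjusted p = 1.75e-05 and 8.11e-05). Trim63 differed by 0.55 after exhaustion and -0.38 at rest.

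Other lists held calls at rest and few or none after exhaustion. Of all genes, 10.3% were higher and 1.98% lower in HCR at rest, against 3.19% and 0.837% after exhaustion. Interactions were called above 0 for 0.816% of all genes. Of 14 denervation and neuromuscular junction genes 0 passed after exhaustion in limma (median 0.18; 1 at an unadjusted p below 0.05), whereas 8 were lower in HCR at rest (median -1.36; 2 in a fit of those 12 arrays alone) and 6 interactions were called, all above 0. Myog, a myogenic factor raised in denervated muscle, differed by 0.67 after exhaustion (adjusted p = 0.353) and -1.42 at rest (adjusted p = 0.0064). Old HCR exhausted replicate 1, the array that stood apart, held Myog at 8.73, against 5.57 to 7.22 in the other HCR exhausted arrays. Ampd3 of the same list was 9.29 on it, against 6.26 to 7.40. The interactions of this list were not counted without that array. The list's mean level by array was 6.73 to 8.53 in old HCR and 6.65 to 7.48 in old LCR exhausted rats, and 6.81 to 7.60 in old HCR and 7.13 to 8.96 in old LCR rats at rest. For oxidative phosphorylation 32 of 51 subunits were higher in HCR at rest (median 0.29), a count that was 20 without old LCR rest replicate 5, 15 after quantile normalization and 5 in a fit of those 12 arrays alone. Of the 51 interactions 0 passed in limma and 15 had an unadjusted p below 0.05, as had 1409 of all 9558 genes. A different line gap after exhaustion than at rest was thus not shown for any 1 subunit. Across the list 0 of the 51 interactions lay above 0, with a median of -0.20 against -0.05 over all genes, which was itself below 0. The 51 subunits were read in the same rats and are not independent, so that this count only describes the list. At rest all 51 differences were positive, against 67.3% of all genes. Of 10 slow fibre genes 0 passed after exhaustion (median 0.51; 0 at an unadjusted p below 0.05) and 6 at rest (median 1.08; 1 in a fit of those 12 arrays alone). Myh7, the slow myosin heavy chain, averaged 10.39 ± 0.41 in HCR and 9.81 ± 0.54 in LCR after exhaustion (adjusted p = 0.636), and its difference at rest was 2.40.

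Markers of other cell types were read beside these results. Of all genes 3.19% were higher and 0.837% lower, and 1540 of 9558 had an unadjusted p below 0.05 in limma. Of 8 endothelial genes Cldn5, Esam and Cdh5 were higher by 0.86, 0.77 and 0.31, Tek was lower, and the median was -0.01. Cdh5 lost its call when any of 8 arrays was left out, and 1 endothelial gene was higher in a fit of the 12 arrays alone. The mean endothelial level was 7.32 to 7.74 in HCR arrays and 7.18 to 7.53 in LCR arrays, and Vwf differed by -0.10. Of 12 macrophage genes 11 had a positive difference (59.1% of all genes did) and 0 passed in limma (median 0.29; 6 at an unadjusted p below 0.05), with mean levels of 5.75 to 6.75 in HCR and 5.49 to 6.05 in LCR. C1qb, a complement subunit of macrophages, differed by 0.61 (adjusted p = 0.0986). Neutrophil and B cell markers, 9 and 4 on the array, were too dim to be tested. Tendon, fibroblast, adipocyte, mast cell, T and NK cell, nerve and plasma protein lists held 0 calls, with 1 fibroblast and 1 adipocyte gene and 0 of the others at an unadjusted p below 0.05. Sdc4, a proteoglycan of satellite cells that other cells also make, was higher by 0.90 ± 0.13 as the single call among 7 satellite cell genes. The part of these cells in the results was not tested.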

How the data were processed

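RNA of the extensor digitorum longus was measured on 48 arrays in 8 groups of 6, and the groups were read from the source names. The authors deposited log2 values, with 1 value for each probe set on each array. Expression Console is named in the series' design text and RMA with oligo, both without a version, in the submitters' processing notes, and which program made the table is not settled by them. RMA makes the arrays' distributions alike, so that a shift common to most genes cannot be read. Array medians lay between 4.47 and 4.59. Arrays have no read depth, so the precision rests on how many there are and on how far a probe rises above background.

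Of 36685 probe sets, the 14824 that name exactly 1 gene in the platform table were used, and 14670 of these matched a current gene record by Entrez identifier, 89 by symbol and 65 not at all. The brightest probe set stood for each of 234 genes that have several. A gene was tested where 6 or more arrays exceeded 4.54, the median over the whole table, which left 9558 of 14557.

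A single model with a mean for each of 8 groups was fitted with limma 3.58.1 in R 4.3.3 (eBayes defaults, 40 residual and 3.77 prior degrees of freedom). Each of 5 comparisons was tested from both sides, with p-values adjusted by Benjamini-Hochberg over all genes and a threshold of 0.05. Python 3.11.15 drew the figures. No pair of arrays held identical values. The members, gene lists, comparisons and naming rule were chosen with earlier results of these data known. Named genes are the 15 largest differences past the threshold in each direction, the 5 smallest p in each direction of each interaction, and up to 4 called members of a list or up to 2 others. Loci without a proper name count but are not named. Lists in use also covered circadian, atrophy, calcium, interferon, p53, polyamine, oxidant defence, lipid storage, mitochondrial biogenesis and myogenic genes.

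On simulated data with 200 of 9558 genes changed, the comparison of old exhausted rats recovered 68.7% of log2 changes of 0.5, 92.5% of those of 1 and 100% of those of 2, with 9 false calls among 183. The simulated noise was normal, independent between genes and of equal spread on all arrays, with no other group differences. These rates therefore need not hold for the real arrays, whose quality weights differ. Alternatives were other normalizations, filters, probe set summaries, array weights, an intensity trend, the compared arrays alone and each array left out. Leaving out the 3 arrays with weights below 0.5 was added after seeing the data.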

Additional observations from a re-analysis of the deposited data

Results flagged for a closer look

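In 36 named genes, 72 groups of 6 arrays were checked for an array far from the other 5, by the share of the group's range that the gap to its nearest neighbour takes (limit 0.625). Chance alone would flag about 1 in 20 such groups, and 9 were found. Old HCR exhausted replicate 5 was the lowest of its group for Stc1 (5.54, gap share 0.758), Prima1 (6.01, 0.639), Junb (7.07, 0.846) and Hes1 (7.56, 0.665). Old HCR exhausted replicate 1 was the highest for Pvr (9.08, 0.629). Acsf2 had one such array in each group, HCR replicate 2 as the highest (7.34, 0.762) and LCR replicate 2 as the lowest (7.22, 0.851). In old LCR exhausted rats, replicate 6 was the lowest for Cyp2j4 (4.65, 0.786) and replicate 1 for Arrdc3 (8.11, 0.658).

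The line difference in old rats differed between exhaustion and rest for 152 genes by the interaction test in limma. Among the named genes the interaction, the exhausted minus the rested line difference on the log2 scale, was 4.18 for Mt2A, 1.82 for Adamts9, 2.13 for Ddit4, 2.21 for Stc1 and 1.67 for Coq10b. It was 1.52 for Arrdc2, 1.05 for Irs2, 1.46 for Arrdc3, 0.94 for Tinagl1, 1.52 for Junb, 1.70 for Tgif1, 1.93 for Pvr and 1.46 for Hes1. Below 0 it was -1.27 for Tekt1, -1.25 for Lpar6, -1.53 for Aplnr, -1.07 for Rnf135 and -1.22 for Rgs4. It was -0.87 for Rnf125, -0.89 for Efna1 and -0.69 for Podxl2. For Arrdc2, Tinagl1 and Rnf135 the adjusted p was 0.0469, close to the threshold.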

How the results depend on the processing

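The 385 genes of old exhausted rats became 231 (194 higher, 37 lower) when the 12 arrays were fitted alone, 377 (260 higher, 117 lower) after quantile normalization and 417 (352 higher, 65 lower) after median centring, and 284 to 438 when each array was left out. At rest 736 (436 higher, 300 lower) were called after quantile normalization and 324 with the compared arrays alone, in place of 1173, and 831 to 1323 when each array was left out. Young exhausted rats gave 792 genes with array quality weights, in place of 485, and 368 to 505 when each array was left out. The line by exercise interaction was the least stable count: in place of 152 it gave 65 with no filter on dim genes, 32 with the compared arrays alone and 76 to 340 when each array was left out, with 76 without old LCR rest replicate 5 and 340 without old LCR rest replicate 3. It split into 123 above and 59 below 0 after quantile normalization and 70 above and 46 below after median centring. Without the 3 arrays that stood apart it called 111 genes, 73 above 0 and 38 below. The comparison at rest then called 978 (745 higher, 233 lower) and that of young exhausted rats 544. The line by age interaction gave 0 genes in every setting. Of 77 genes named and called in old exhausted rats 50 kept their call in every alternative and 27 lost it in at least 1; no direction turned. No paired analysis was possible because replicate numbers follow accession order and pair no rats. The causes of these shifts were not tested.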

Other observations

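Further gene lists held 0 to 3 calls each between old HCR and old LCR muscle after exhaustion, where 3.19% of all genes tested were higher and 0.837% lower. Of 19 lipid storage and synthesis genes 3 were higher in HCR, Lpin2, a phosphatidate phosphatase, by 0.64 ± 0.15, the fatty acid elongase Elovl5 by 0.43 ± 0.10 and Pnpla2. Of 11 circadian genes 2 were higher, Per1 and the repressor Nfil3 (0.65 ± 0.17), whose adjusted p was 0.0504 without HCR replicate 1. Nfil3 averaged 7.14 ± 0.19 in HCR and 6.49 ± 0.21 in LCR without overlap, and its line difference at rest was 0.86. Of 23 atrophy, ubiquitin and autophagy genes 3 were higher, Trim63, the ubiquitin ligase component Fbxo31 (0.60 ± 0.16) and Eif4ebp1. Without HCR replicate 1 or HCR replicate 2 that count was 1. Fbxo31 lost its call without either of these (adjusted p = 0.0572 and 0.0616) and without LCR replicates 2 (0.0567) or 6 (0.0643). Of 26 oxidant defence genes 1 was higher, Nfe2l2, the factor that drives many of the others, by 0.35 ± 0.07. It was 2 without HCR replicate 4 or 5 and 3 without LCR replicate 5.

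Of 16 calcium handling and excitation genes 1 was lower, the inward rectifier channel Kcnj2 (-0.43 ± 0.11), which lost its call without HCR replicate 1 (adjusted p = 0.0713) or LCR replicate 5 (adjusted p = 0.0626). Of 30 antigen presentation and interferon genes Ifitm3 was higher by 0.40 and RT1-M3-1 lower by a difference of -0.72. They lost their calls when any of 4 and any of 8 of the 12 arrays was left out, and near-identical RT1 copies may share probes. Of 8 polyamine genes 1 was higher, Odc1, the enzyme that starts polyamine synthesis, by 0.41, and it lost its call without any of 5 arrays. In limma 0 of 13 mitochondrial biogenesis genes, 0 of 13 myogenic genes and 0 of 10 p53 genes passed, with 1, 0 and 2 at an unadjusted p below 0.05. Of 5 metallothionein and zinc transport genes Mt2A alone was higher, and the median of the 5 was 0.0024. Mcam, a pericyte and vessel adhesion molecule, was higher by 0.35 as the single call of 7 smooth muscle and pericyte genes, but not without HCR replicate 4 (adjusted p = 0.0795) or LCR replicate 4 (adjusted p = 0.0683).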
